A study of Mus musculus with 8 samples.

Results

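Striated muscle myosin chains and their closest partners were followed as 10 genes, chosen by symbol from the 50600 genes listed in each of 3 comparison tables: the heavy chains Myh6, Myh7 and Myh7b, the light chains Myl1, Myl2, Myl3, Myl4 and Myl7, myosin binding protein C (Mybpc3) and the light chain kinase Mylk3. All 10 symbols were found, once each. The cells were mouse embryonic fibroblasts of the C57BL/6 strain. All of them carried retroviruses for GHMT, the transcription factors Gata4, Hand2, Mef2c and Tbx5, which turn part of such fibroblasts towards heart muscle in culture. They were grown in StemPro-34 serum-free medium and kept for 7 days in 1% DMSO, in 5 µM I-CBP112, in 5 µM C646 or in 0.1% ethanol, with 2 libraries per treatment and 8 in all. CBP and p300 are histone acetyltransferases: I-CBP112 occupies their bromodomain and C646 their catalytic site. No group lacked the GHMT viruses. The labels name no solvent for either inhibitor and no separate embryos or cultures behind the libraries, so errors measure the spread between these libraries only. Library titles carry the same pair of replicate marks in every group, and no pairing by them could be made here.

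Muscle myosin is a motor that pulls on actin. Its heavy chains hold the motor head and the rod that packs into the thick filament, and the neck of each head carries an essential and a regulatory light chain. In the mouse, Myh6 (alpha) is the main heavy chain of the adult heart and of the atria, and Myh7 (beta) that of the fetal ventricle and of slow skeletal muscle. Myl4 and Myl7 are the essential and regulatory chains of the atria and the embryonic heart, Myl3 and Myl2 those of the ventricle, and Myl1 is the essential chain of fast skeletal muscle and is also made in the embryonic heart. Mybpc3 binds the heavy chain rod and titin and sets the pace of cross-bridge cycling, and Mylk3 phosphorylates the cardiac regulatory light chain.

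The members lie on several chromosomes, so that only Myh6 and Myh7 are neighbours. On GRCm38, Myh6 spans chromosome 14 from 54941921 to 54966927 and Myh7 from 54970684 to 54994626, both on the minus strand, with 3756 bases between them. Each heavy chain gene holds a microRNA in an intron: Mir208a in Myh6, Mir208b in Myh7 and Mir499 in Myh7b. The mature sequences from RefSeq (GRCm38.p6) are shown because their seeds (bases 2 to 8, in capitals) differ at most in the last base:
mmu-miR-208a-3p: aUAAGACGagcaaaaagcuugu
mmu-miR-208b-3p: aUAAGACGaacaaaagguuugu
mmu-miR-499-5p: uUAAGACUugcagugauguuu
The seed is UAAGACG in miR-208a-3p and miR-208b-3p, and UAAGACU in miR-499-5p. No value of a mature microRNA is used here.

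RefSeq start sites gave 13 promoter windows for the 10 members, each from 250 bases before to 50 bases after the start. Both strands were searched for the GATA motif AGATAA, the E-box CANNTG and the T-box AGGTGT, and for MEF2 and CArG box matches, the CArG box being the site of serum response factor. The letters of a T-box and an E-box can overlap. A CArG match was found in 2 of the 10 members, against 1.63% of 32841 mouse promoter windows, a MEF2 match in 1 of 10, against 3.19%, and a GATA match in 3 of 10, against 11.2%. E-box matches were in 9 of 10, against 72.3%, and T-box matches in 0 of 10, against 13.7%. A member counts if any of its windows matches, whereas these percentages are of single windows. Of the 13 windows, 2 had a CArG, 1 a MEF2, 3 a GATA, 11 an E-box and 0 a T-box match. A match describes letters only. For GATA only the exact string AGATAA was counted. TGATAA in the Myl7 and Mybpc3 windows below and AGATAG in that of Myl1 were not counted and stand in small letters. For 4 members 1 window each is shown, because these genes behaved differently from each other in the comparisons. Myl1 changed most, Myl7 and Mybpc3 were higher with both DMSO and I-CBP112, and Mylk3 passed the test with DMSO alone. Capitals mark CArG, MEF2, GATA or T-box letters, and positions count from the start site, with -1 the base before it.
Myl1 (chr1:66945007-66945306, minus strand): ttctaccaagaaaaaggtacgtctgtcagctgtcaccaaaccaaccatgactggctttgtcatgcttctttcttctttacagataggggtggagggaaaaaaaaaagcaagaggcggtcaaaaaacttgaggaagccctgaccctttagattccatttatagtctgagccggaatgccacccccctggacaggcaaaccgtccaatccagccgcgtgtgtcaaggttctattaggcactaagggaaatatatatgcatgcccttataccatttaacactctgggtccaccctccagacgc
Myl7 (chr11:5898733-5899032, minus strand): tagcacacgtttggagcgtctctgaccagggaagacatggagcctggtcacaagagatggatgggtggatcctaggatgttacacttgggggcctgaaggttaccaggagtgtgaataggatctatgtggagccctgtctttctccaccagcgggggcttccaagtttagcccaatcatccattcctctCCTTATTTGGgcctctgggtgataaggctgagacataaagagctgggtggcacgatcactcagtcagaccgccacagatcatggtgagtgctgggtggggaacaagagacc
Mybpc3 (chr2:91117894-91118193, plus strand): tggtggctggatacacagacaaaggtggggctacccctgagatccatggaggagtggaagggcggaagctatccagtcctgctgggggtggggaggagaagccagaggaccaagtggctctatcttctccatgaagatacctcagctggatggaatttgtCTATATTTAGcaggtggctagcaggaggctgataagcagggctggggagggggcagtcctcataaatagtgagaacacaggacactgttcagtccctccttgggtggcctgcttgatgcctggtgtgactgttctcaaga
Mylk3 (chr8:85380992-85381291, minus strand): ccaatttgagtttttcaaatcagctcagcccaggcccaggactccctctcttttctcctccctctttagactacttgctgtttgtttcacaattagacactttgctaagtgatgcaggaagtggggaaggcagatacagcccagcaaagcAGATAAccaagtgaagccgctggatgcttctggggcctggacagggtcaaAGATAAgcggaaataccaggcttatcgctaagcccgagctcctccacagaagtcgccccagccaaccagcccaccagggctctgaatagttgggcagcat
Myl7 has a CArG match whose first base is at -61, Mybpc3 a MEF2 match at -90, and Mylk3 GATA matches at -100 and -50. Mylk3 has a second window at another start site (chr8:85365275-85365574), not shown, with 0 matches to each of the motifs. Myl3 has the other CArG match, at -85. Both Myl2 windows lie far from the GENCODE starts of that gene, 8227 and 7762 bases away, and Myl2 is 1 of the 3 members with a GATA match and 1 of the 9 with an E-box. The RefSeq start of Myl1 lies 87 bases from the nearest GENCODE start, and gene-level counts do not part its 8 annotated transcripts.

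Values come from the authors' DESeq2 tables of DMSO, I-CBP112 and C646, each against 1 common reference, read here as ethanol because it is the treatment without a table. The tables hold no value of a single library. Levels below are therefore group means of normalised counts, rebuilt from the mean over all 8 libraries and the 3 fold changes, and ± is the deposited standard error (SE) of a log2 fold change over groups of 2 libraries. All genes together had a mean of 3.8e+07 normalised counts per library. An adjusted p was given in the DMSO and I-CBP112 tables to 14830 genes with a mean of 26.1 normalised counts or more, which included 7 of the 10 members and left out Myh7b, Myl2 and Myl3. Fibroblast markers were abundant in every group, with 8 listed genes summing to 391593 normalised counts with DMSO, 407154 with I-CBP112, 604246 with C646 and 611832 with ethanol. The 8 cardiomyocyte markers summed to 200648 with DMSO, 221033 with I-CBP112, 102588 with C646 and 99858 with ethanol, none at 0.

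Together the 10 genes made up 0.558% of normalised counts with DMSO, 0.413% with I-CBP112, 0.115% with C646 and 0.117% with ethanol. Nearly all of this RNA came from 5 of them. Myh6, the alpha heavy chain, stood highest in counts, and Myl7, the atrial regulatory chain, highest per kilobase of its longest coding transcript. Per kilobase, Myl7 ranked 4th of 11364 tested protein-coding genes with DMSO, 10th with I-CBP112, 34th with C646 and 33rd with ethanol. Myl4, the atrial essential chain, ranked 18th, 57th, 196th and 201st, and Myh6 ranked 75th, 88th, 525th and 484th, in the same order. The ventricular light chains were close to absent: Myl2 summed to 13.1 and Myl3 to 25.3 normalised counts over all 8 libraries. In these bulk samples more cells of a type and more RNA per cell cannot be told apart.

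**Figure D1:**
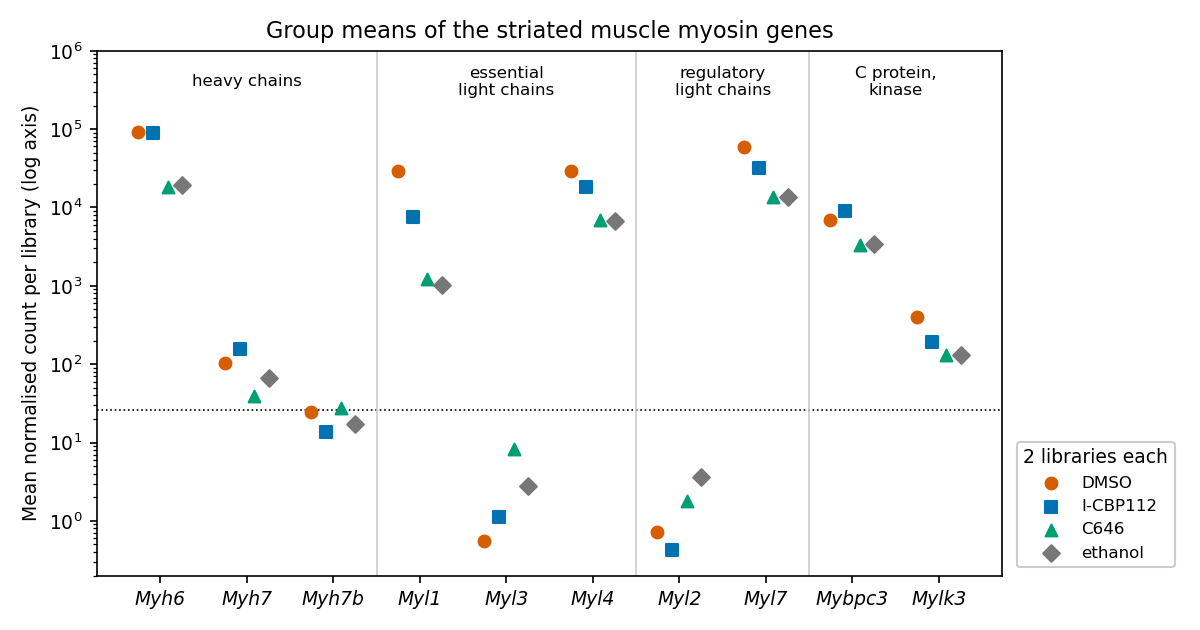
Mean normalised count per library (log axis) of each gene by treatment, 2 libraries per group, without error bars because no library values are given; the dotted line is the lowest mean (26.1) with an adjusted p in the DMSO and I-CBP112 tables. Points of DMSO and I-CBP112 lie above those of C646 and ethanol for Myh6, Myh7, Myl1, Myl4, Myl7, Mybpc3 and Mylk3.

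The first question is how each treatment differed from ethanol. With DMSO, 6 of the 7 tested members rose and 0 fell, against 8.07% of all tested genes that rose, 7.9% that fell and 16% that changed either way. With I-CBP112 it was again 6 of 7 upward and 0 downward, against 4.65% and 5.25% of all tested genes, or 9.9% either way. Myh6, Myl1, Myl4, Myl7 and Mybpc3 rose with both. Mylk3 was the sixth with DMSO and Myh7 the sixth with I-CBP112. With C646, 0 of 10 members passed by the authors' DESeq2 test, and 0 of 10 had an unadjusted p under 0.05, while 0.00292% of 34250 genes rose, as many fell and 0.00584% changed either way, and 0.581% had an unadjusted p under 0.05. The median log2 fold change of the 7 tested members in the authors' deposited tables was 2.09 for DMSO, 1.43 for I-CBP112 and -0.02 for C646, against 0.03, 0.01 and 0.00 over the tested genes. The 3 comparisons share their ethanol libraries. When the test statistics were read on a t scale instead (4 degrees of freedom), Myl1 with DMSO was the 1 call of a member that held, here and between treatments. The C646 intervals (95%, log2) were narrow for Myl7, from -0.23 to 0.20, and Mybpc3, from -0.30 to 0.29, and wide for Mylk3, from -0.57 to 0.52, Myl4, from -0.89 to 0.99, and Myh7, from -1.59 to 0.08.

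**Figure D2:**
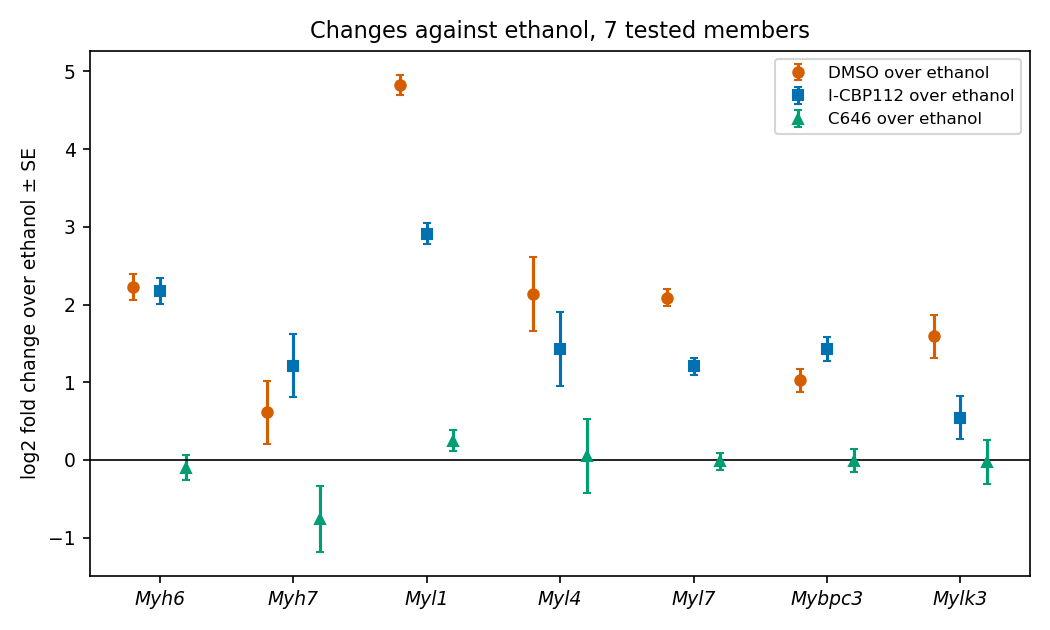
Log2 fold change over ethanol with its deposited SE (vertical axis) for the 7 members with an adjusted p, by treatment. Myl1 stands highest, at 4.83 with DMSO and 2.91 with I-CBP112, and the C646 points lie near 0 except Myh7 at -0.76.

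Among the heavy chains, Myh6 averaged 91239 normalised counts with DMSO, 88094 with I-CBP112, 18214 with C646 and 19485 with ethanol. The DMSO and I-CBP112 levels were close to each other and far above the C646 and ethanol levels. The Myh6 fold over ethanol in the authors' deposited tables was 4.68 with DMSO (log2 2.23 ± 0.16, DESeq2 adjusted p = 3.88e-39) and 4.52 with I-CBP112 (log2 2.18 ± 0.16, adjusted p = 7.59e-37). With C646 the Myh6 log2 value in the authors' deposited table was -0.10 ± 0.16, with a 95% interval from -0.42 to 0.22.

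Myh7, the beta chain, was scarce, with group means of 102 normalised counts for DMSO, 155 for I-CBP112, 39.6 for C646 and 66.9 for ethanol. The I-CBP112 mean was the highest. In the authors' deposited tables Myh7 rose with I-CBP112, by a log2 of 1.22 ± 0.40 (DESeq2 adjusted p = 0.0304), and stood at 0.61 ± 0.40 with DMSO (adjusted p = 0.352) and -0.76 ± 0.43 with C646. The I-CBP112 call is near the threshold: its adjusted p was 0.0688 when adjusted over all genes with a p-value, within a range of 0.0262 to 0.466 over the alternatives tried. Myh7b, a slow-tonic heavy chain, had group means of 24.3, 13.7, 27.8 and 17.1 normalised counts for DMSO, I-CBP112, C646 and ethanol, and its deposited SEs of 0.93 to 0.97 are wider than any of its log2 values. Per kilobase, Myh6 made 99.9% of the summed Myh6, Myh7 and Myh7b RNA with DMSO, 99.8% with I-CBP112, 99.6% with C646 and 99.6% with ethanol. Heavy chains outside the members are not in that sum. With ethanol, the fast chain Myh2 averaged 131 normalised counts and the non-muscle chain Myh9 32613. The fast chain Myh1, named after its value was seen, averaged 256 with ethanol.

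The heavy chain levels rest partly on shared sequence. Of the 31-base words of the longest Myh7 coding transcript, 38.6% also occur in another gene, mostly in Myh6, and of those of Myh6 32.5% do, mostly in Myh7. How reads are split between them by the quantification is not visible here, so the low Myh7 level beside an abundant Myh6 is uncertain. The same limit holds for the Myh7 fold changes and calls, over ethanol and between treatments, because Myh6 differed between the same groups. Myh7b shares 0.293% of its words.

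Among the essential light chains, Myl1 had the largest increase of all 14830 tested genes with DMSO and the 5th largest with I-CBP112. Myl1 averaged 28824 normalised counts with DMSO, 7649 with I-CBP112, 1205 with C646 and 1015 with ethanol. DMSO stood well above I-CBP112, and both well above C646 and ethanol, which were close to each other. Myl1 in the authors' deposited tables was 28.4-fold higher with DMSO (log2 4.83 ± 0.13, DESeq2 adjusted p = 9.53e-292) and 7.53-fold higher with I-CBP112 (log2 2.91 ± 0.13, adjusted p = 2.83e-104). Its C646 value in the authors' deposited table was 0.25 ± 0.13 on the log2 scale, with an unadjusted p of 0.0664 and a 95% interval from -0.02 to 0.51. Of the 31-base words of Myl1, 28.4% also occur in the pseudogene Mylf-ps, which is not analysed here.

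Myl4 averaged 29392 normalised counts with DMSO, 18053 with I-CBP112, 6935 with C646 and 6693 with ethanol. It kept the same order as Myl1 with narrower steps. In the authors' deposited tables the Myl4 log2 fold change was 2.13 ± 0.48 with DMSO (DESeq2 adjusted p = 0.000166), 1.43 ± 0.48 with I-CBP112 (adjusted p = 0.0323) and 0.05 ± 0.48 with C646. The SE of Myl4 was over 3 times that of Myl1 or Myl7 although all are abundant. Its dispersion, in the authors' model the variance between libraries beyond counting error divided by the squared mean, was 0.110 as rebuilt from the SEs. That was above the dispersion of 99.5% of 5878 genes with a mean of 1000 or more (median 0.00875). Myl7's 0.00565 was above that of 1.5% of them. These dispersions are values of the authors' fitted model, and the spread between libraries could not be measured directly without library values. The I-CBP112 call of Myl4 is near the threshold, at an adjusted p of 0.0732 over all genes with a p-value and between 0.0278 and 0.467 over the alternatives tried. Myl3, the ventricular essential chain, averaged 0.551, 1.12, 8.24 and 2.75 normalised counts with DMSO, I-CBP112, C646 and ethanol, too few to compare.

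Of the essential light chains only the members Myl1, Myl3 and Myl4 are summed here, without those of other myosins, such as the non-muscle ones. The makeup of their RNA moved with treatment. Per kilobase, Myl1 made 46.1% of it with DMSO, 27.0% with I-CBP112, 13.1% with C646 and 11.7% with ethanol, and Myl4 nearly all of the rest. An SE rebuilt from the dispersions, with the genes taken as independent, was 6.0 percentage points for DMSO, 4.8 for I-CBP112, 2.8 for C646 and 2.5 for ethanol; the shares were not tested. With the union of all exons as length the Myl1 share was 68.7%, 48.6%, 27.9% and 25.3%, over 1.5 times as high in the last 3 groups, in the same order of groups. The summed level of the essential chains was 57809 normalised counts per kilobase with DMSO, 26215 with I-CBP112, 8476 with C646 and 8039 with ethanol.

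**Figure D3:**
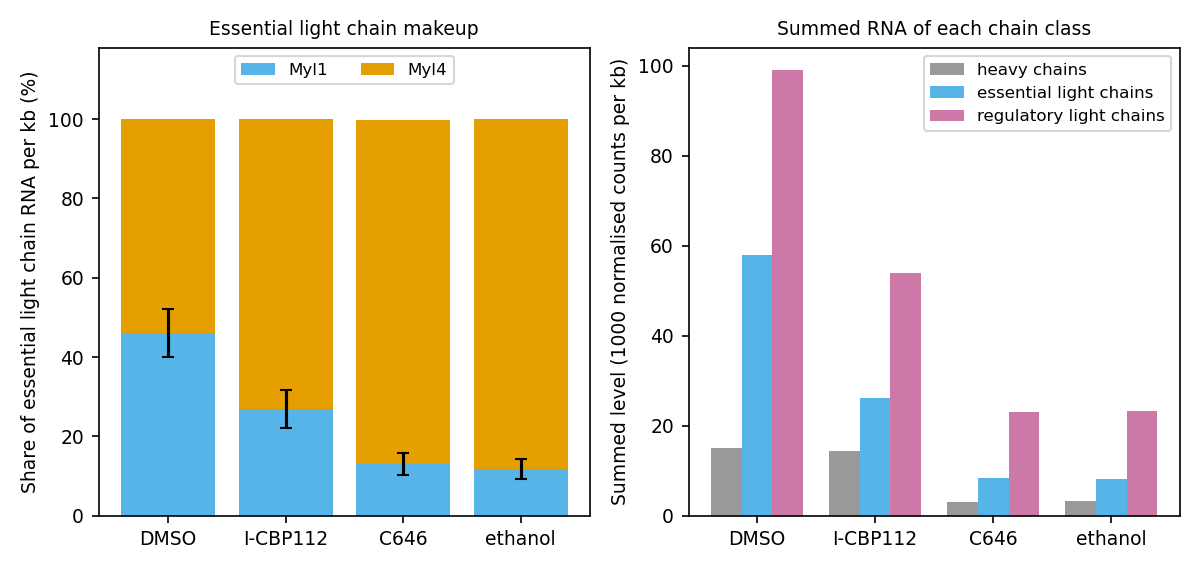
Left, share of Myl1 and Myl4 in the members' essential light chain RNA per kilobase by treatment (%), with rebuilt SE on the Myl1 share. Right, summed level per kilobase of the members' heavy, essential and regulatory chains by treatment. The heavy chain sums of DMSO (14946) and I-CBP112 (14438) are close, while the light chain sums are higher with DMSO.

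Among the regulatory light chains, Myl7 averaged 58408 normalised counts with DMSO, 31778 with I-CBP112, 13593 with C646 and 13759 with ethanol. DMSO stood highest, I-CBP112 between, and C646 and ethanol together at the bottom. Myl7 in the authors' deposited tables was 4.25-fold higher with DMSO (log2 2.09 ± 0.11, DESeq2 adjusted p = 2.07e-78) and 2.31-fold higher with I-CBP112 (log2 1.21 ± 0.11, adjusted p = 1.3e-25), and its C646 value was -0.02 ± 0.11. Myl2, its ventricular counterpart, summed over the 2 libraries of each group to 1.45 normalised counts with DMSO, 0.847 with I-CBP112, 3.56 with C646 and 7.29 with ethanol, so no fold is given. Ratios between the classes were taken over the members only. Regulatory chain RNA per kilobase was 6.62 times heavy chain RNA with DMSO, 3.73 times with I-CBP112, 7.70 times with C646 and 7.29 times with ethanol. Essential chain RNA was 3.87, 1.82, 2.83 and 2.51 times heavy chain RNA in the same order. With I-CBP112 both ratios were the lowest of the 4 groups. No error was computed for these ratios, and their size depends on the lengths used.

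The proteins that act on the chains did not follow 1 pattern. Mybpc3 averaged 6869 normalised counts with DMSO, 9105 with I-CBP112, 3361 with C646 and 3378 with ethanol, the only abundant member whose highest mean was with I-CBP112. In the authors' deposited tables it rose by a log2 of 1.02 ± 0.15 with DMSO (DESeq2 adjusted p = 7.7e-10) and 1.43 ± 0.15 with I-CBP112 (adjusted p = 1.17e-18), and stood at -0.01 ± 0.15 with C646. Mylk3 averaged 397 normalised counts with DMSO, 192 with I-CBP112, 130 with C646 and 132 with ethanol. The DMSO mean stood apart from the other 3. In the authors' deposited tables Mylk3 rose with DMSO by a log2 of 1.59 ± 0.27 (DESeq2 adjusted p = 2.44e-07) and stood at 0.54 ± 0.28 with I-CBP112 (adjusted p = 0.262, unadjusted p = 0.0509) and -0.03 ± 0.28 with C646.

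The treatments were then compared with each other. For each of 3 pairs the difference of the deposited log2 fold changes was set against an SE rebuilt from the 3 deposited ones; its p-value, from the normal distribution, was then corrected across 14830 genes (Benjamini-Hochberg). Between I-CBP112 and DMSO, 3 of the 7 tested members were lower with I-CBP112 and 0 were higher, against 2.66% of tested genes lower, 4.31% higher and 6.97% either way. Myl1 was 3.77-fold lower with I-CBP112 (log2 -1.91 ± 0.13, adjusted p = 5.71e-47 across all genes), Myl7 1.84-fold lower (log2 -0.88 ± 0.11, adjusted p = 3.43e-13) and Mylk3 2.07-fold lower (log2 -1.05 ± 0.27, adjusted p = 0.00296). For Myh6 the log2 difference was -0.05 ± 0.16, with a 95% interval from -0.37 to 0.27. Myl4 at -0.70 ± 0.48 (95% interval -1.64 to 0.23) and Myh7 at 0.60 ± 0.40 (-0.17 to 1.38) did not pass and have wide intervals. Mybpc3 at 0.41 ± 0.15 did not pass (adjusted p = 0.0799 across all genes). With the summed group means scaled to be equal, Mybpc3 did pass, at an adjusted p of 0.0437, within a range of 0.0437 to 0.656 over the alternatives. The Mylk3 call did not hold with an upper bound for the SE, which adds the squares of both deposited SEs and so counts the spread of the ethanol libraries in each, at an adjusted p of 0.211 (range over the alternatives 0.0025 to 0.571).

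Between C646 and DMSO all 7 tested members were lower with C646, against 7.86% of tested genes lower, 7.98% higher and 15.8% either way. The log2 differences ran from -1.03 ± 0.15 for Mybpc3 and -1.37 ± 0.42 for Myh7 to -4.58 ± 0.13 for Myl1, which was 23.9-fold lower with C646 (adjusted p = 4.68e-265 across all genes). Myh6 was 5.01-fold, Myl7 4.30-fold, Myl4 4.24-fold and Mylk3 3.06-fold lower with C646. The Myh7 call (adjusted p = 0.0104 across all genes) was lost with the upper bound of the SE, at 0.192, in a range of 0.0128 to 0.297 over the alternatives. These differences share the DMSO libraries with the comparison of DMSO with ethanol.

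Between I-CBP112 and C646, both at 5 µM for 7 days, 6 of the 7 tested members were higher with I-CBP112 and 0 were lower, against 4.69% and 5.11% of tested genes, or 9.8% either way. Myl1 was 6.35-fold higher with I-CBP112 (log2 2.67 ± 0.13, adjusted p = 6.99e-88 across all genes) and Myh6 4.84-fold higher (log2 2.27 ± 0.16, adjusted p = 2.28e-40). Myh7 was 3.92-fold higher (log2 1.97 ± 0.41, adjusted p = 7.52e-05), Mybpc3 2.71-fold, Myl4 2.60-fold and Myl7 2.34-fold. Mylk3 did not pass, at a log2 of 0.57 ± 0.28 with a 95% interval from 0.03 to 1.11 (adjusted p = 0.228). Myl4 passed narrowly, at an adjusted p of 0.0423 across all genes; it did not hold without the filter on low counts (0.0955) or with the upper bound of the SE (0.444), in a range of 0.0366 to 0.482 over the alternatives.

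**Figure D4:**
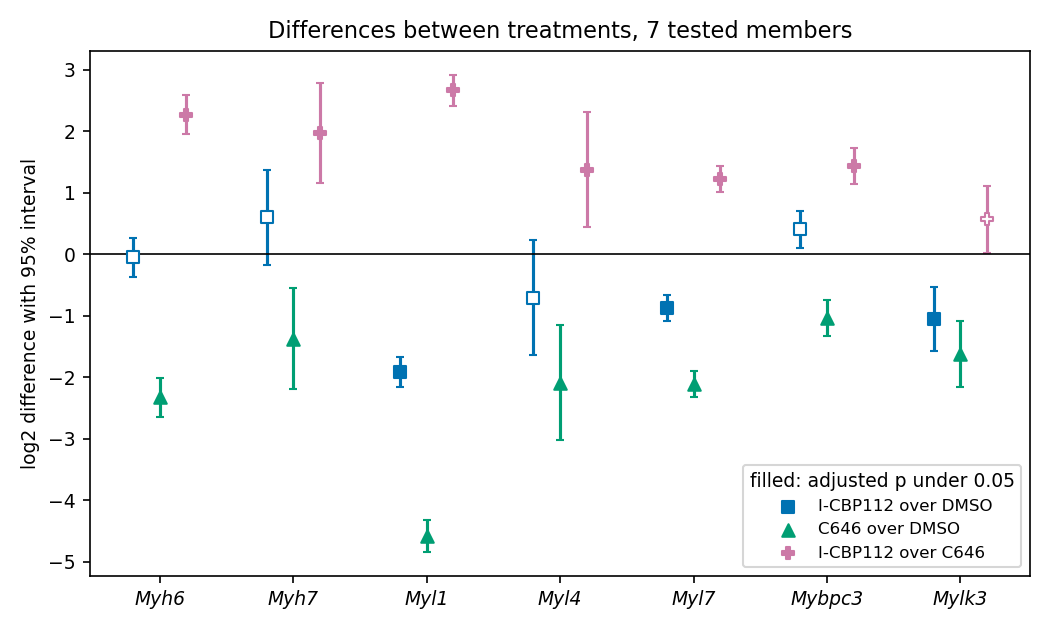
Log2 difference between treatments with its 95% interval (vertical axis) for the 7 tested members; filled symbols have an adjusted p under 0.05. Myl1 and Myl7 are filled in all 3 pairs, whereas the I-CBP112 over DMSO difference of Myh6 lies at -0.05.

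Other genes of the striated thick filament followed in part. Of 22 listed, 12 were tested. With DMSO 4 rose and 1 fell, against 8.07% and 7.9% of all tested genes, so that the 1 lower is near the share over all genes. With I-CBP112 4 rose and 0 fell, against 4.65% and 5.25%, while with C646 0 of the 12 passed. Titin (Ttn), the spring that spans the sarcomere, was 2.82-fold higher with DMSO (DESeq2 adjusted p = 8.83e-17) and 3.81-fold higher with I-CBP112 (adjusted p = 1.53e-27) in the authors' deposited tables, with an SE of 0.17 on the log2 scale for each. Unc45b, the chaperone that folds muscle myosin heads, was at 1.35 ± 0.16 and 0.61 ± 0.16, both higher, in the authors' deposited tables. Myom2, a protein of the M-band that ties thick filaments together, rose with I-CBP112 to 1.15 ± 0.12 and stood at 0.28 ± 0.12 with DMSO in the authors' deposited tables; it was higher with I-CBP112 than with DMSO (0.87 ± 0.12, adjusted p = 4.62e-10 across all genes). The adult fast heavy chain Myh2 fell with DMSO, by 1.64 ± 0.37, in the authors' deposited table. Smyd1, a muscle methyltransferase that takes part in myosin assembly, also rose with DMSO and is named after its values were seen. It was at 1.16 ± 0.29 with DMSO and -0.41 ± 0.30 with I-CBP112 in the authors' deposited tables, and was lower with I-CBP112 than with DMSO (-1.57 ± 0.29, adjusted p = 1.04e-05 across all genes). The median log2 value of the list was 0.37 for DMSO, 0.12 for I-CBP112 and 0.01 for C646, against 0.03, 0.01 and 0.00 over all tested genes.

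The myosins of non-muscle and smooth muscle cells went another way with DMSO. Of 7 tested genes 4 fell and 1 rose with DMSO, against 7.9% and 8.07% of all tested genes. With I-CBP112 2 fell and 1 rose, against 5.25% and 4.65%, and with C646 0 passed. A count of 1 in 7 is too small to set apart from the share over all genes. The median log2 fold change was -0.47 for DMSO and -0.01 for I-CBP112. Myh11, the smooth muscle heavy chain, averaged 7866 normalised counts with DMSO, 17410 with I-CBP112, 15905 with C646 and 16719 with ethanol. It fell with DMSO by a log2 of 1.09 ± 0.18 and stood at 0.06 ± 0.18 with I-CBP112 in the authors' deposited tables, and it was higher with I-CBP112 than with DMSO (1.15 ± 0.18, adjusted p = 2.9e-08 across all genes). Myl9, a regulatory chain of smooth and non-muscle myosin, was at -0.94 ± 0.11 with DMSO and 0.45 ± 0.11 with I-CBP112 in the authors' deposited tables, past the test in opposite directions. The non-muscle heavy chains Myh9 (-0.75 ± 0.13 and -0.38 ± 0.13) and Myh10 (-0.47 ± 0.12 and -0.51 ± 0.12) fell with both in the authors' deposited tables. Of 8 tested light chain kinases and phosphatase genes, 1 fell with DMSO, the kinase Rock2 at -0.44 ± 0.12 in the authors' deposited table, and 0 passed with I-CBP112 or C646. A count of 1 in 8 is near the 7.9% of all tested genes that fell with DMSO.

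Of 15 tested transcription factors known at striated myosin genes, 4 rose with DMSO, against 8.07% of all tested genes, and 4 rose and 1 fell with I-CBP112, against 4.65% and 5.25%, so that the 1 lower is near the share over all genes. The median log2 value of the list was 0.11 for DMSO and -0.08 for I-CBP112. The risers were Gata4, Hand2, Mef2c and Myocd with both, with Hand2 close to the threshold for I-CBP112 (DESeq2 adjusted p = 0.0498 in the authors' deposited table). Myocd (myocardin), a partner of serum response factor, was at 1.06 ± 0.17 with DMSO and 0.65 ± 0.17 with I-CBP112 in the authors' deposited tables, and the virus factor Mef2c at 0.76 ± 0.13 and 0.50 ± 0.13. Counts of Gata4, Hand2, Mef2c and Tbx5 do not part the RNA of the viruses from that of the cells' own genes. The 1 that fell with I-CBP112 was Tbx20, named after its value was seen, at -0.59 ± 0.17 in the authors' deposited table.

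**Figure D5:**
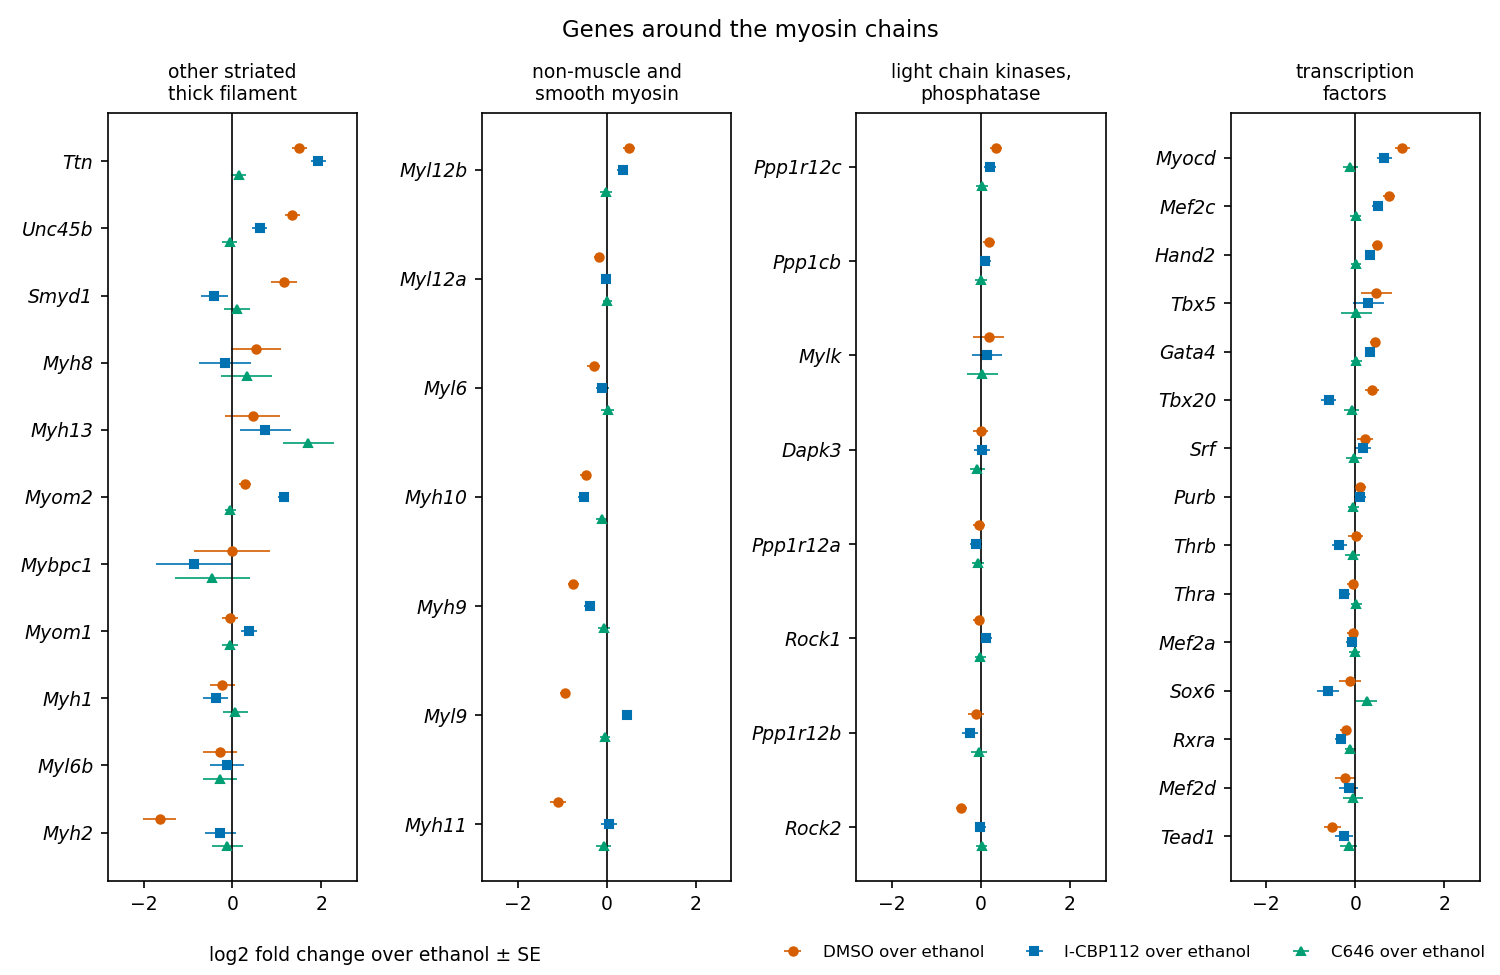
Log2 fold change over ethanol with SE (horizontal axis) of tested genes of 4 lists, by treatment. Ttn and Unc45b lie to the right of 0 with DMSO and I-CBP112, Myh9 and Myh10 to the left, and Myl9 on opposite sides.

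Markers of other muscle types were read beside these results. The listed skeletal muscle markers were scarce: of 11, 2 were tested, and the list summed to 130.2 normalised counts with DMSO, 151 with I-CBP112, 277 with C646 and 250.2 with ethanol. The fast heavy chains Myh1 and Myh2 are not on that list. The myogenic factor Myod1 was at 0, Myog at a mean of 0.224 and Myf5 at 0.239 normalised counts over the 8 libraries. Of the 2 tested, 0 were higher in any comparison with ethanol, and 1, the fast troponin T gene Tnnt3, fell with DMSO by a log2 of 2.67 ± 0.45 in the authors' deposited table. Without Tnnt3 the order of the sums differed: the other 10 markers, set apart after their values were seen, summed to 102 normalised counts with DMSO, 65.6 with I-CBP112, 76.6 with C646 and 69.4 with ethanol, so that DMSO was then the highest. Among them the embryonic heavy chain Myh3 averaged 7.71 normalised counts with DMSO and 0.450 with ethanol, the fast regulatory chain Mylpf 32.1 and 19.0, and the perinatal heavy chain Myh8 42.3 and 29.3; their log2 values in the authors' deposited table were 4.10 ± 2.51, 0.75 ± 0.64 and 0.53 ± 0.57, with no adjusted p for Myh3 and Mylpf and an adjusted p of 0.622 (DESeq2) for Myh8. Smooth muscle markers, 6 in number, summed to 87772 with DMSO, 131544 with I-CBP112, 127052 with C646 and 128760 with ethanol, none at 0, and 6 of 6 fell with DMSO and 1 of 6 with I-CBP112. Of the 8 fibroblast markers 6 fell with DMSO and 4 with I-CBP112, and of the 8 cardiomyocyte markers 6 rose with DMSO and 8 with I-CBP112. The 4 endothelial markers, of which 2 were tested, summed to 575 with DMSO, 659 with I-CBP112, 999 with C646 and 1005 with ethanol, and 1 fell with DMSO and 1 with I-CBP112. The 4 macrophage and leukocyte markers summed to 897, 796, 948 and 1006 in the same order of groups, and 2 fell with I-CBP112. With C646 0 markers of any list passed against ethanol. Over all tested genes, 8.07% rose and 7.9% fell with DMSO, and 4.65% rose and 5.25% fell with I-CBP112. The part of cell makeup in the myosin values was not tested.

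Genes whose pattern was most like that of the members were sought among 13301 other tested genes with a mean of 50 normalised counts or more, by the Euclidean distance of their 3 log2 fold changes over ethanol, which share the ethanol libraries. No gene lay close to Myl1: the nearest, Nppa (atrial natriuretic peptide), was 2.01 log2 units away, followed by Sln (sarcolipin, a regulator of the calcium pump) at 2.05, Nppb (brain natriuretic peptide) at 2.08, the Z-disc protein Actn2 at 2.16 and the exchanger Slc24a2 at 2.31. The deposited log2 SEs were wide for both peptides, 1.29 for Nppa and 1.16 for Nppb with DMSO in the authors' deposited table. The median pattern of the 7 tested members had near neighbours, Fam134b at 0.064, Tmod1 (tropomodulin, which caps thin filaments) at 0.089, Ache (acetylcholinesterase) at 0.16, Atp8a1 (a phospholipid flippase) at 0.18 and Srl (sarcalumenin, a calcium-binding protein of the sarcoplasmic reticulum) at 0.19. Tmod1 had log2 values of 2.09 ± 0.15 for DMSO, 1.35 ± 0.15 for I-CBP112 and 0.02 ± 0.15 for C646 in the authors' deposited tables.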

How the data were processed

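Libraries were built with a TruSeq RNA kit from RNA purified by a Direct-zol kit, per the labels' protocols; nothing there says that strand was kept. Reads were quantified with kallisto 0.43.1 and tested with DESeq2 (version not given in the sources used here) on GRCm38.p5, per the submitters' processing notes. The deposited tables hold, per the file headers, the mean normalised count over 8 libraries (a signal made by the authors' size factors), the authors' log2 fold change and its SE, a deposited Wald score equal to their ratio, and the authors' p-value and adjusted p. A transcript length is also given, but the per-kilobase values here use GENCODE M21 lengths instead. No library values, and so no depth per library, are given.

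Group means and 1 dispersion per gene were rebuilt from these with Python 3.11.15, numpy 2.4.6, pandas 2.3.3 and scipy 1.17.1. By that formula 98.9% of the SEs of DMSO, 99.0% of those of I-CBP112 and 99.0% of those of C646 were met to within 1%. It was tested on simulated data for I-CBP112 against DMSO (14830 genes, 200 changed): 77.7% of genes changed by a log2 of 1 and 95.3% of those changed by 2 were called, and 3.33% of calls were unchanged genes. Each simulated SE was made from the gene's true dispersion. These shares therefore leave out the error of estimating a dispersion from 2 libraries, and do not test the p-values of the real data. The threshold was an adjusted p of 0.05. Positions, lengths and shared words come from GENCODE M21 (GRCm38), which holds 50376 of the 50600 identifiers; sequences come from RefSeq (GRCm38.p6). Members, gene lists and tests were chosen with earlier results of these data known. Named beyond the members were at most 4 genes per list, by the largest absolute Wald score among those past the test against ethanol, and the 5 genes nearest in pattern. Of the listed genes, 1 is not reported here. Alternatives were the scaling, the reference distribution, the filter on low counts, the SE of a difference and the length.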

Additional observations from a re-analysis of the deposited data

How the results depend on the processing

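Over 60 member values (10 genes in 6 comparisons) 0 changed sign with a call under the alternatives. Replacing the normal by a t distribution with 4 degrees of freedom left 1 member called for DMSO over ethanol (Myl1) and 0 for I-CBP112 over ethanol, I-CBP112 over DMSO, C646 over DMSO and I-CBP112 over C646, so 27 of 28 calls were lost. Scaling, the count filters and the upper bound of the SE left every count of called members within 1.5 times, with 6 single calls lost at the test and 1 gained, each given beside its result. The filter at a mean of 100 normalised counts or more left out Myh7 (mean 91.1) and with it 3 more calls, for I-CBP112 over ethanol, C646 over DMSO and I-CBP112 over C646. The Myl1 share of essential light chain RNA moved with the union of exons as length, to 68.7% with DMSO, 48.6% with I-CBP112, 27.9% with C646 and 25.3% with ethanol: that union is 4637 bases for Myl4 and 2074 for Myl1, against 943 and 1082 bases in the longest coding transcript. With no length it stayed within 1 rebuilt SE. No paired analysis was possible because the tables hold no values of single libraries, and leaving out a replicate could not be run for the same reason. With 2 libraries per group, Myl2, Myl3 and Myh7b are limited by depth, and Myl4 by its wide SE.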

Other observations

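The antisense transcript Mhrt starts 1750 bases from Myh6 on the opposite strand of chromosome 14 and overlaps Myh7 over 3666 bases. It averaged 26 normalised counts with DMSO, 20.3 with I-CBP112, 8.35 with C646 and 3.92 with ethanol, below the mean needed for an adjusted p. Its log2 fold change over ethanol in the authors' deposited tables was 2.73 ± 0.96 with DMSO (DESeq2 unadjusted p = 0.00455), 2.37 ± 0.96 with I-CBP112 (unadjusted p = 0.0140) and 1.09 ± 0.99 with C646 (unadjusted p = 0.27). The labels do not say that strand was kept, so reads of Mhrt and Myh7 may not be told apart where they overlap. The hairpin row of Mir208a had a mean of 3.31 normalised counts, that of Mir499 0.121, and Mir208b was at 0.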
